A study of Homo sapiens with 6 samples.

Results

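Genes named LINC followed by a number are long intergenic noncoding RNA genes, a naming class for transcripts that lie between protein-coding genes and carry no long open reading frame. Of the 17187 gene rows of the deposited table, 146 had such a symbol. The 67 described here were selected on their level, as a mean of at least 20 over the 6 libraries. The class was chosen with earlier results of these data known. The mean pools both groups and does not use the difference between them. For a gene that reached it through the control mean or the IFNg mean only, the selection partly set the direction of the difference. The values are normalised read counts, meaning reads of a gene divided by 1 scaling factor per library, and they are not divided by gene length. Just inside the minimum lay LINC00598 and LINC00167, with means of 20.8 and 21.2, and just outside lay LINC00552 and LINC00700, both with means of 17.8. In 61 of the 67 the control mean and the IFNg mean were each at least 20, whereas 4 reached the minimum through the control mean and 2 through the IFNg mean.

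The cells were HT-1080, an established human fibrosarcoma line, of wild-type genotype in both groups. The 3 control libraries came from PBS-treated cells, and the other 3 from cells exposed to recombinant IFNg (interferon gamma) for 8 h at a concentration of 10 ng/ml. This cytokine is made by T cells and natural killer cells and signals through a cell-surface receptor and Janus kinases. Whether libraries were grown as separate cultures is not stated in the labels, so p-values measure the spread between these samples only, which may be technical.

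Long noncoding RNAs act as RNA rather than through a protein. Some hold chromatin regulators or RNA-binding proteins, some are hosts from which small nucleolar RNAs or microRNAs are cut, and for others the act of transcription affects a neighbouring gene. Several genes once named LINC were later found to encode small proteins and were renamed. IFNg and viral infection are known to raise some noncoding RNAs in other cells, commonly ones next to interferon-stimulated genes. The libraries here were made from total RNA without ribosomal RNA, so transcripts lacking a poly(A) tail were kept.

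Libraries held 59556948 to 83501954 reads assigned to genes. The IFNg response genes listed as a check of the labels were higher in 6 of 6, with IRF1, a transcription factor gene, at 395 to 995 in the controls and 26300 to 30650 in IFNg. Of the mesenchymal markers 7 of 8 had a row, and their summed value was 681600 to 696700 in the controls and 624300 to 661600 in IFNg. VIM was the highest of them, at 329100 to 406100 in the controls and 314900 to 404500 in IFNg. The lowest, S100A4, was only at 50.6 to 83.5 in the controls and 19.5 to 45.2 in IFNg. Epithelial markers had 3 rows of 6, summing to 37.6 to 68.1 in the controls and 30.1 to 78.0 in IFNg. Blood cell markers had 5 rows of 8, summing to 126 to 207 in the controls and 153 to 181 in IFNg. Most of this was LYZ, at 114 to 157 in the controls and 97.6 to 151 in IFNg. PTPRC reached 44.6 and CD3D 50.1 in 1 library each, and CD14 and CD3E were at 0 in every control and at most 28.9 and 25.5 in IFNg. In bulk RNA, a lower value can come from fewer cells of a kind or from less RNA per cell, and these cannot be told apart.

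None of the 67 LINC genes passed the test between IFNg and control. In limma over 15546 kept genes, 0 LINC genes had a Benjamini-Hochberg adjusted p under 0.05, where 4.32% of all kept genes and 4.92% of the kept genes with a mean of at least 20 did. The smallest adjusted p among them was 0.158. An unadjusted p under 0.05 was reached by 5 LINC genes, or 5 of 67, against 15.3% of all kept genes. On the recovered reads, edgeR called 0 of 67 (4 at an unadjusted p under 0.05) where it called 4.69% of all genes tested, and DESeq2 called 0 of 67 (4 unadjusted) where it called 6.9%. All 67 passed the filter on low values. Of the 79 LINC genes below the minimum, 46 were kept and 0 were called, with 3 at an unadjusted limma p under 0.05.

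The log2 differences (IFNg minus control, on log2 of the value plus 1) ran from -2.21 to 1.70, with 26 above and 41 below 0. Their median was -0.06, beside -0.01 over all kept genes. The wide differences belonged to genes with few reads. Among the 14 LINC genes with a mean over 1000 the differences lay between -0.44 and 0.36, and among the 26 with a mean of 100 to 1000 between -0.43 and 0.46. The 27 genes with a mean of 20 to 100 held the extremes at both ends. Among the 61 genes that reached the minimum on both group means the range was -1.10 to 0.79.

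**Figure D1:**
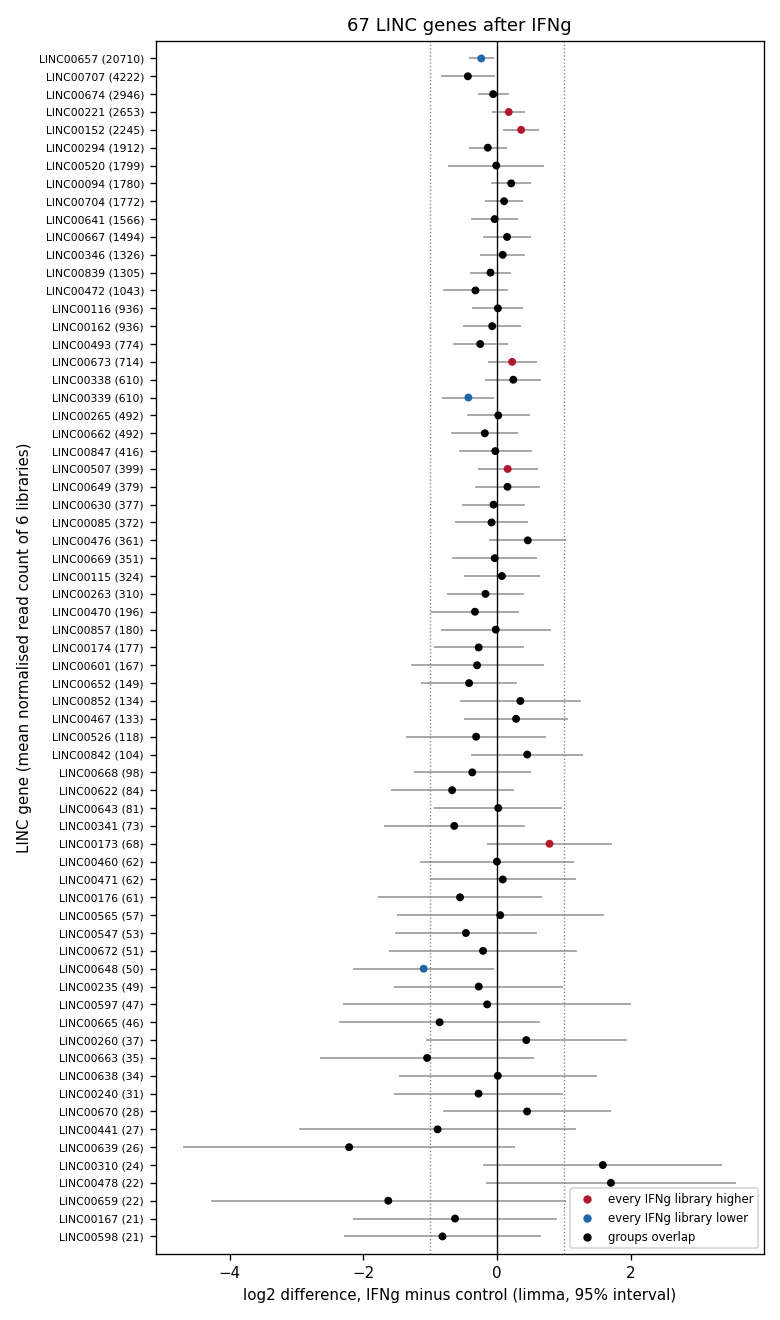
Log2 difference between IFNg and control (x axis) with its 95% interval from limma for each of 67 LINC genes (y axis), ordered by mean normalised read count. Points are coloured where all IFNg libraries lay above (red) or below (blue) all controls; dotted lines mark a 2-fold difference. Intervals widen towards the bottom, where the mean falls to 20.8.

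How small a difference could be seen depended on the level. The coefficient of variation within a group had a median of 9.39% for LINC genes with a mean over 1000, 17.7% for those between 100 and 1000 and 46.0% for those between 20 and 100. Over all kept genes in the same ranges it was 8.89%, 17.8% and 42.2%, and the share called by limma was 5.95%, 3.81% and 2.12%. The 95% interval of the difference lay inside 2-fold in either direction for 14 of the 14, 19 of the 26 and 1 of the 27 LINC genes, in the same order. It lay inside 1.5-fold for 10, 5 and 0 of them. For 26 of the 27 LINC genes with a mean under 100 the interval reached 2-fold or more. It included 0 in all of the 27 except LINC00648.

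**Figure D2:**
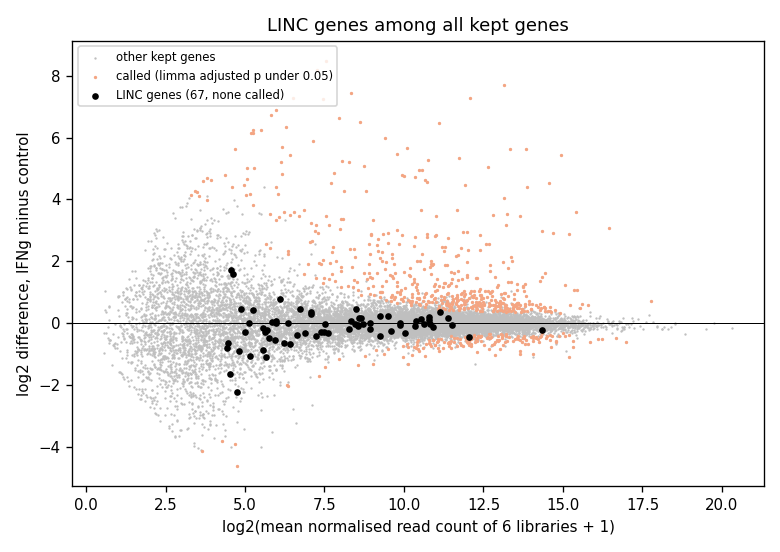
Log2 difference between IFNg and control (y axis) by level, the log2 of 1 plus the mean normalised read count (x axis) for 15546 kept genes. The 67 LINC genes (black) lie between -2.21 and 1.70, inside the grey band of genes not called, while called genes (orange) reach far above it.

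LINC00657, now named NORAD, had by far the most reads of the class, with 32.9% to 38.1% of the summed values of the 67 genes in each library. NORAD is an unspliced cytoplasmic RNA known for binding the PUMILIO proteins, which repress mRNAs, and for its part in keeping chromosome number stable. PUMILIO proteins bind the motif TGTANATA (as DNA, N any base). The NORAD transcript of 5339 bases in GENCODE release 29 held 15 matches on its own strand, the most of any LINC gene here. At least 1 match was in the longest transcript of 11 of 64 LINC genes found in that annotation (17.2%), and in 9.21% of 14994 noncoding genes, whose longest transcripts are shorter (median of 688 bases against 2499). Per kilobase there were 0.133 matches in the LINC genes and 0.0991 in the noncoding genes. NORAD alone held 15 of the 26 matches, and without it the LINC genes had 0.0578 per kilobase. The rate of the noncoding genes still includes NORAD and a transcript with 37 matches, so it is not a like comparison for that value. The stretches below show places where matches stand in pairs, in capitals, counted from the first base of the transcript.
NORAD bases 1416 to 1475: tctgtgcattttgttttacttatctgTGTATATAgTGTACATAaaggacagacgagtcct
NORAD bases 2613 to 2672: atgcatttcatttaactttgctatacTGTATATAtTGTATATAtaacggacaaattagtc
NORAD bases 3249 to 3308: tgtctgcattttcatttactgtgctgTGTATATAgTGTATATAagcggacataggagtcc
A match is a stretch of letters and does not show binding in these cells.

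The NORAD values were 24028, 20726 and 22520 in controls 1, 2 and 3 and 19014, 18902 and 19074 in IFNg 1, 2 and 3. Every IFNg library lay below every control, and the IFNg libraries were closer together (SD 87.4) than the controls (SD 1653). The IFNg mean was 0.847 times the control mean, with a log2 difference of -0.24 ± 0.09 (SE) and a 95% interval of -0.42 to -0.05. This did not pass (limma adjusted p = 0.187). Of the 50-base stretches of the NORAD transcript, 35.3% also occurred in transcripts of other genes, most in OVCH1-AS1 (22.7%). Stretches were compared on both strands here and below. Reads of NORAD may be shared with such copies.

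LINC00152, now CYTOR, is known as a cytoplasmic RNA that is raised in many tumours. It had the smallest adjusted p of the class. Its values were 2228, 1935 and 1750 in the controls and 2534, 2458 and 2566 in IFNg. All IFNg libraries were above all controls, with a mean 1.28 times as high. The log2 difference of 0.36 ± 0.12 (95% interval 0.09 to 0.63) did not pass limma (adjusted p = 0.158). The related gene MIR4435-2HG shared 16% of the 50-base stretches of CYTOR, so reads of these copies cannot be fully separated here. The promoter of CYTOR held 1 match to the gamma-activated site motif TTCNNNGAA, shown with the other promoters further down.

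LINC00339 lies between HSPG2 and CDC42 in the gene order of RefSeq. It was at 747, 650 and 703 in the controls and 492, 566 and 500 in IFNg. The groups did not overlap, and the IFNg mean was 0.742 times the control mean (log2 difference -0.43 ± 0.18, limma adjusted p = 0.27). Of its 50-base stretches, 33.5% also occurred on either strand in other transcripts. The largest part (23.4%) was shared with AL031281.3, a gene that overlaps LINC00339 on the opposite strand. CDC42 itself, which encodes a small GTPase of the actin cytoskeleton, had a log2 difference of 0.08 (adjusted p = 0.802).

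**Figure D3:**
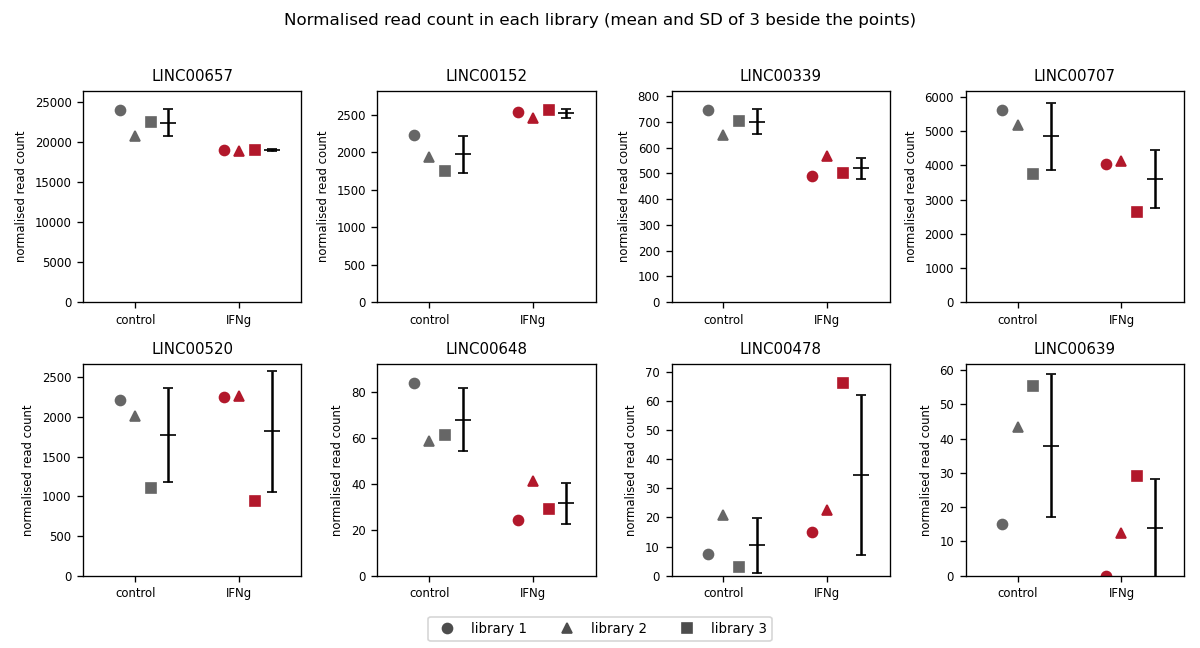
Normalised read count of 8 LINC genes in each library (y axis, linear from 0), with controls in grey, IFNg in red and marker shapes for the library number. The mean and SD of the 3 libraries stand beside the points, with SD bars cut at 0. LINC00657 and LINC00339 are lower and LINC00152 higher in every IFNg library, while LINC00520 is low in library 3 of both groups.

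Groups did not overlap for 5 LINC genes higher and 3 lower in IFNg, which is 11.9% of the class beside 20% of all kept genes. Over all kept genes, 10.7% were higher and 9.28% lower without overlap. These shares were not matched for level. A mean over 1000 was reached by 14 of the 67 LINC genes and by 8343 of the 15546 kept genes. The genes higher without overlap were LINC00152, LINC00173, LINC00221, LINC00507 and LINC00673, and those lower were LINC00339, LINC00648 and LINC00657. For LINC00507 the separation was by 404.2 in IFNg 1 against 403.9 in control 1. LINC00673, described in melanoma and pancreatic cancer, was at 625, 652 and 696 in the controls and 716, 748 and 847 in IFNg (log2 difference 0.23 ± 0.17, limma adjusted p = 0.6). LINC00173 was at 54.6, 46.8 and 44.8 in the controls and 107, 63.0 and 89.2 in IFNg (0.79 ± 0.43, adjusted p = 0.438). LINC00648 was at 83.6, 58.5 and 61.3 in the controls and 24.2, 41.3 and 28.96 in IFNg. That is 0.464 times the control mean, and the log2 difference of -1.10 ± 0.48 did not pass either (adjusted p = 0.303).

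LINC00707, which had the second most reads, had its lowest value in library 3 of each group. It was at 5620, 5180 and 3738 in the controls and 4048, 4113 and 2632 in IFNg, and control 3 was below IFNg 1 and 2. The log2 difference was -0.44 ± 0.19 (limma adjusted p = 0.282). It passed without control 3 (-0.61, adjusted p = 0.041) and without both libraries numbered 3 (-0.40, adjusted p = 0.0161), and with a replicate block (-0.44, adjusted p = 0.00336), and was -0.23 without IFNg 3 (adjusted p = 0.624). Over the fits that left out 1 library, its adjusted p ran from 0.041 to 0.634.

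The same libraries set LINC00520 apart. This RNA, also called LEENE and studied in endothelial cells, was at 2215, 2014 and 1102 in the controls and 2256, 2268 and 937 in IFNg. Libraries numbered 3 were low in both groups, and the group means were nearly equal, at 1777 ± 593 and 1820 ± 765 (SD, n = 3 each). Its log2 difference was -0.01 ± 0.33 (95% interval -0.73 to 0.71) and changed sign with several settings. Of the 31 LINC genes with a mean of at least 200, LINC00520 and LINC00707 were the 2 whose library 3 was off by more than 0.5 on the log2 scale in the same direction in both groups. Across these 31 genes the deviation of control 3 from controls 1 and 2 and that of IFNg 3 from IFNg 1 and 2 had a Pearson r of 0.656, given as a description over genes that share the same 6 libraries. Over 13446 kept genes with a mean of at least 20, the deviations of control 3 and IFNg 3 from their group means had an r of only 0.2. What the libraries numbered 3 have in common was not tested.

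**Figure D4:**
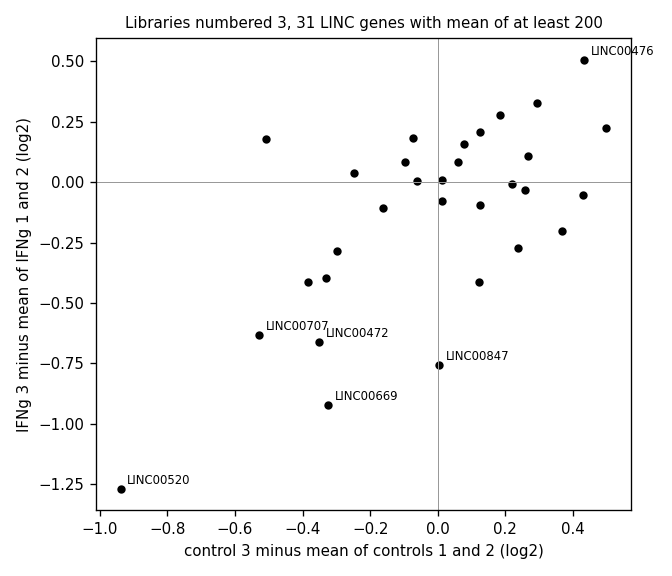
Deviation of library 3 from the mean of libraries 1 and 2 on the log2 scale, in control (x axis) and in IFNg (y axis), for the 31 LINC genes with a mean of at least 200. LINC00520 lies furthest to the lower left, and the points tend to run from lower left to upper right (r = 0.656).

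Several LINC symbols of the class are now synonyms of protein-coding genes in RefSeq. RefSeq lists 59 of the 67 as long noncoding RNA, 7 as protein-coding and 1 as a transcribed pseudogene, and 22 carry a newer symbol. The 7 were matched by synonym, and LINC00341 was matched to SYNE3, a gene of up to 17 exons in GENCODE. Whether the reads of these 7 came from coding transcripts was not tested. LINC00116, now MTLN, encodes mitoregulin, a small protein of the inner mitochondrial membrane. It was at 838, 968 and 979 in the controls and 1107.5, 955 and 772 in IFNg, with a log2 difference of 0.01 ± 0.18 (95% interval -0.37 to 0.40). LINC00493, now SMIM26, encodes a small integral membrane protein and was at 972, 835 and 715 in the controls and 776, 760 and 583 in IFNg (-0.25 ± 0.19, limma adjusted p = 0.606). LINC00094, now BRD3OS, overlaps the bromodomain gene BRD3 and was at 1666, 1439 and 1852 in the controls and 1782, 2064 and 1874 in IFNg (0.21 ± 0.14, adjusted p = 0.523). In each of these 3 genes the groups overlapped.

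Of 17 LINC genes listed for a described product or role, under their LINC symbol, 13 had a row and 12 were kept, and limma called 0 of them and 2 had an unadjusted p under 0.05, beside 4.32% and 15.3% of all kept genes, with a median log2 difference of 0.11. Host genes of small RNAs were in the class as well. LINC00338, now SNHG20, overlaps the small Cajal body RNA gene SCARNA16 and was at 576, 616 and 485 in the controls and 664, 744 and 577 in IFNg (log2 difference 0.24 ± 0.19, limma adjusted p = 0.623). LINC00478, now MIR99AHG, hosts miR-99a and let-7c and had the largest positive difference of the class. It reached the minimum level through the IFNg mean only, so a higher IFNg value was partly set by the selection. It was at 7.50, 20.9 and 2.92 in the controls and 14.9, 22.7 and 66.0 in IFNg, so IFNg 3 alone lay far above the others (1.70 ± 0.86, adjusted p = 0.39).

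The other large differences also belonged to genes near the minimum level. LINC00639 and LINC00659 reached it through the control mean only and LINC00310 through the IFNg mean only, so the direction of their differences was partly set by the selection. LINC00639 had the most negative one, at 15.0, 43.4 and 55.5 in the controls and 0, 12.4 and 28.96 in IFNg (-2.21 ± 1.14, limma adjusted p = 0.403). Its 0 in IFNg 1 allows up to 3 reads there, a normalised read count of 2.79. LINC00659 was at 33.2, 43.4 and 7.79 in the controls and 11.1, 36.2 and 0 in IFNg (-1.63 ± 1.22), where the 0 in IFNg 3 allows up to 3.48. LINC00663 (-1.05 ± 0.73) and LINC00310 (1.58 ± 0.82) also had overlapping groups. LINC00476, an antisense RNA of the DNA repair gene ERCC6L2 with more reads, was at 299, 244 and 365 in the controls and 318, 421 and 520 in IFNg (0.46 ± 0.26, adjusted p = 0.462).

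Other LINC genes with many reads had differences nearer 0. LINC00674 was at 2856, 3044 and 3114 in the controls and 2706, 2857 and 3102 in IFNg, with a log2 difference of -0.06 and an interval of -0.29 to 0.18. LINC00221 was at 2617, 2232 and 2637 in the controls and 2788, 2954 and 2689 in IFNg (0.17, interval -0.08 to 0.42). LINC00265 had group means of 492 ± 94.9 and 493 ± 45.4 (0.02, interval -0.46 to 0.49), and LINC00467, described in several tumours, of 120 ± 33.2 and 145 ± 31.4 (0.28, interval -0.49 to 1.06). The 2 genes just above the minimum, LINC00598 (-0.82 ± 0.67) and LINC00167 (-0.63 ± 0.70), had intervals that included 0 and ran past 2-fold lower. Both reached the minimum through the control mean only, so the direction of their differences was partly set by the selection.

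Per kilobase of merged exons in GENCODE release 29, the highest LINC genes were LINC00674 at 4014 and NORAD at 3879 normalised reads, followed by LINC00162 at 1277, LINC00704 at 923 and LINC00221 at 860. The lowest was LINC00598 at 1.13. These lengths come from another annotation than the one used for counting, and LINC00674 is a short transcribed pseudogene there, so the order is approximate. Among the 64 LINC genes found in GENCODE, 15 shared over 10% of their 50-base stretches with another gene's transcripts and 23 under 1%. An annotated gene on the opposite strand overlapped 31 of them. The library kit was a stranded one per the labels, but whether the authors' counting used strand is not given in the sources used here, so reads of such partners cannot be told apart.

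Genes next to the LINC genes were tested in the same fit. The nearest kept gene on each side, by the gene order of RefSeq (GRCh38.p14), gave 131 different flanking genes, of which limma called 2 (1.53%, beside 4.32% of all kept genes). No limit on distance was set, so a flanking gene may lie far away. The flanking genes include LINC genes of the class, such as LINC00526 and LINC00667, which flank each other. Both were named after their values were seen. SFMBT2, a Polycomb-related gene beside LINC00707, rose from 571 ± 61.0 to 1695 ± 172 (log2 difference 1.57 ± 0.16, limma adjusted p = 6.117e-05), while LINC00707 itself had a difference of -0.44. RALA, a small GTPase gene beside LINC00265, rose from 4460 ± 87.0 to 6772 ± 307 (0.60 ± 0.09, adjusted p = 0.00169), beside a difference of 0.02 for LINC00265. Over the 133 pairs, the log2 differences of LINC gene and flanking gene had a Pearson r of -0.01 and a Spearman rho of 0.07, as a description over genes that share the same libraries. Of 13 kept genes that overlap a LINC gene, 0 were called by limma, beside the same 4.32%, with a smallest adjusted p of 0.1345.

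**Figure D5:**
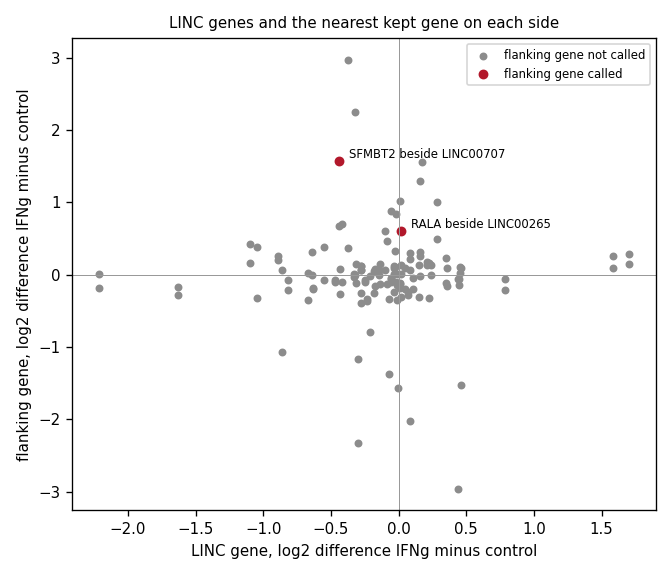
Log2 difference of the flanking gene (y axis) against that of the LINC gene (x axis) for 133 pairs. The 2 flanking genes called by limma (red) are SFMBT2 at 1.57 and RALA at 0.60; the LINC genes beside them are at -0.44 and 0.02.

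Promoters were searched for motifs of interferon-regulated genes. The interferon-stimulated response element core was taken as GAAA, any 2 bases and GAAA, and the gamma-activated site as TTCNNNGAA, each on both strands, in the window from 250 bases before to 50 bases after the start in RefSeq (GRCh38.p14). A promoter was matched for 54 of the 67 LINC genes. The response element core was in 2 of these (3.7%), beside 3.57% of all 35116 promoters in the table, 3.13% of the matched promoters of kept genes and 17.7% of those of genes called higher in IFNg. The gamma-activated site was in 5 LINC promoters (9.26%), beside 7.66% of all promoters, 6.54% of those of kept genes and 13.8% of those of genes called higher. No LINC promoter held both. A match is a description of letters and not of a bound site, and a window without one says nothing about the factors.

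Promoters are printed for the LINC genes with a match whose values are given above, and for NORAD, which had none, with matches in capitals. CYTOR lies on the plus strand at chr2:87455177-87455476 and has a gamma-activated site match. LINC00310, on the plus strand at chr21:34180427-34180726, has a response element core read from the opposite strand. MIR99AHG, on the plus strand at chr21:16535322-16535621, has a gamma-activated site match. NORAD lies on the minus strand at chr20:36050911-36051210.
CYTOR (LINC00152): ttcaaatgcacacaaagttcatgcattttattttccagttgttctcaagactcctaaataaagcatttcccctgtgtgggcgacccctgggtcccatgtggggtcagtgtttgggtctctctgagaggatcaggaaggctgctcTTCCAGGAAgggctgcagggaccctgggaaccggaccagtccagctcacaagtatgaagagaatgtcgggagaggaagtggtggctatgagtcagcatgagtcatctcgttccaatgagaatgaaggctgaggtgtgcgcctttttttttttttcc
LINC00310: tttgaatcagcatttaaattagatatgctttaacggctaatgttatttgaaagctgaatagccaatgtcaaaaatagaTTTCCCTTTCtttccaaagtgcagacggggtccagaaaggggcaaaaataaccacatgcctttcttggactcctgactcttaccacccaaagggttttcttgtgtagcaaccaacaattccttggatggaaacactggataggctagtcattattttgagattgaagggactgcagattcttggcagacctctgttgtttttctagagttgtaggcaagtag
MIR99AHG (LINC00478): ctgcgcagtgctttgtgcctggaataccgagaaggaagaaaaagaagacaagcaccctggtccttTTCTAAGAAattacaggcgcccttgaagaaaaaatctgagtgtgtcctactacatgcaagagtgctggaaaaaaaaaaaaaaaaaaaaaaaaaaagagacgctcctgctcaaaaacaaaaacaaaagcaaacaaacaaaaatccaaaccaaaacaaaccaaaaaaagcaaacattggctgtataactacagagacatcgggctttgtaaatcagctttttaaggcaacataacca
NORAD (LINC00657): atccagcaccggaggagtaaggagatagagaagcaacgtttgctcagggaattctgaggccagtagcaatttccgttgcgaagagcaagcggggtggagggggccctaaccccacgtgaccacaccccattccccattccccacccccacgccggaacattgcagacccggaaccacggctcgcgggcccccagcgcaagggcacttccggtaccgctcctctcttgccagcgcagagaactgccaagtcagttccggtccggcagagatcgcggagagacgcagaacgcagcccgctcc

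Noncoding RNA genes with other names were taken as a class for comparison, with 48 of 57 listed genes in the table and 47 kept. Of these, limma called 2 higher and 2 lower (8.51%, beside 4.32% of all kept genes), and their median log2 difference was -0.01. The difference between this class and the LINC genes was not tested. BANCR had 0 reads in the 3 controls and was at 156, 71.3 and 146 in IFNg (limma adjusted p = 0.0001604). NEAT1, the scaffold RNA of nuclear paraspeckles, rose from 26980 ± 683 to 34270 ± 2267 (log2 difference 0.34 ± 0.08, limma adjusted p = 0.0414). DANCR fell from 3447 ± 420 to 2302 ± 351 (-0.59 ± 0.14, adjusted p = 0.0347). RMRP, the RNA of the nuclease MRP, fell from 156900 ± 28510 to 102000 ± 15200 (-0.62 ± 0.14, adjusted p = 0.0293). When single libraries were left out, NEAT1 kept its call only without control 3 (limma adjusted p up to 0.216 otherwise) and DANCR only without IFNg 3 (up to 0.168), while RMRP lost it without control 2, IFNg 2 or IFNg 3 (up to 0.127). Without an intensity trend in limma all 3 lost their calls (adjusted p of 0.208 for NEAT1, 0.224 for DANCR and 0.259 for RMRP). The 3 with the most reads were MALAT1 (-0.34 ± 0.17, limma adjusted p = 0.366, and 0.00887 without control 3), RPPH1 (-0.17 ± 0.13, 0.596) and RMRP.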

How the data were processed

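Total RNA sequencing of 6 HT-1080 libraries was analysed, with paired ends of 50 cycles per the labels' protocols. Tools listed, with no role, per the submitters' processing notes were Cuffdiff 2.2.1, Cufflinks, TopHat2 2.0.13 and FastQC 0.11.3, and the builds were GRCh37 and hg19. For the counter, its strand setting and the scaling, details were not given in the sources used here. Values in the deposited table are a signal: in each library 100% of the positive values are whole reads (tolerance 0.001) divided by 1 size factor, equal to a recomputed median-of-ratios factor, and not RPKM as the table's name says. One read was worth 0.835 to 1.16.

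The test was limma 3.58.1 (R 4.3.3) across all kept genes on log2(value + 1), with an intensity trend and group as the only term, 2-sided, Benjamini-Hochberg adjusted at 0.05. A gene was kept where 3 or more libraries had 0.5 or above. edgeR 4.0.16 and DESeq2 1.42.0 on the recovered reads were alternatives, beside other pseudocounts, filters, scaling and variance models, a block on the replicate number, and fits without single libraries. The code was tested on simulated data. Replicate pairs gave a chi-square of 16.2 to 120 per degree of freedom, more than counting noise alone, a spread that may be technical. Intervals and floors cover counting error or the fit only.

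The LINC genes and the lists were chosen with earlier results of these data known. Named genes were those called, the 5 with the highest mean, the 4 largest differences each way, those beside the minimum, the 3 with a mean of at least 200 nearest to 0, and those with a described role. LINC00339, LINC00507 and both flanking genes were named after their values were seen. Names were matched for 67 of 67 LINC genes through RefSeq (45 by symbol, 22 by an older one). Sequences are from RefSeq (GRCh38.p14) and GENCODE release 29, another build than the authors', so no gene coordinates were moved between builds.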

Additional observations from a re-analysis of the deposited data

How the results depend on the processing

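None of the 67 LINC genes was called with another pseudocount (0.5 or 5), no filter or a stricter one (value of at least 10 in 3 libraries), TMM scaling, a variance model without trend, edgeR or DESeq2, and none when the minimum mean was 10 (86 genes) or 50 (51 genes). Without both libraries numbered 3, 1 LINC gene was called lower (LINC00707), and 882 genes in all were higher and 599 lower. Leaving out 1 library gave 0 to 1 LINC genes lower, 330 to 847 genes in all higher and 37 to 455 lower. With a replicate block 2 LINC genes were lower, LINC00657 (adjusted p = 0.0491) and LINC00707 (0.00336), with 915 genes in all higher and 549 lower. Over 13446 kept genes with a mean of at least 20, same-numbered libraries deviated together only weakly (r of 0.0271, 0.0729 and 0.2 for numbers 1, 2 and 3). IFNg 2 and IFNg 3 each correlated best with the control of their own number, and IFNg 1 with control 2 (0.102). Control 3 had an r of -0.124 with IFNg 1 and -0.113 with IFNg 2. The numbers were not taken as pairs because the labels state no pairing, and these values do not settle whether they are. All genes numbered 279 higher and 41 lower without a trend, against 509 and 163. DESeq2 called 1048 of 15187 genes, of which 339 were lower, where limma called 672 of 15546. Of the other noncoding genes, 2 higher and 2 lower became 1 and 0 without a trend, 4 and 4 with the block and 4 and 4 without both libraries numbered 3, and 1 to 4 and 0 to 3 over the fits without 1 library.

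Of 25 named LINC genes, 22 kept the sign of their difference in every one of 16 alternatives. LINC00520 changed from -0.01 to 0.036 with edgeR, 0.035 with DESeq2 and 0.099 without both libraries numbered 3, and ran from -0.325 to 0.412 without 1 library. LINC00265 changed from 0.02 to -0.212 without both libraries numbered 3 and ran from -0.152 to 0.121 without 1 library. LINC00116 ran from -0.110 to 0.151 without 1 library. The cause of these changes was not tested. Of the 27 genes with a mean under 100, 26 had an interval reaching 2-fold. Their median coefficient of variation was 46.0%, and how much of it is counting error was not tested.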
